A study of Mus musculus with 2 samples.

Results

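The genes described here encode calprotectin (S100a8 and S100a9), lipocalin 2 (Lcn2) and 3 stefin A proteins (Stfa1, Stfa2 and Stfa3), 6 of the 17871 genes on the arrays. They were chosen by their large differences between these same arrays, so their signals are given as a description. Every probe whose symbol in the deposited annotation equals one of the names was taken, which gave 7 of 25697 probes, 2 of them for Stfa3. Gene expression had been measured with Illumina bead arrays in epidermal keratinocytes of mice 3 months old kept on a diet low in calcium. The array labelled VDR KO held RNA of mice with floxed alleles of the vitamin D receptor gene (VDR fl/fl) and a Cre recombinase driven by the K14 promoter, which is active in basal keratinocytes and the outer cells of the hair follicle. The control array held RNA of VDR fl/fl littermates with no Cre named in the label. The sample records of both arrays name 0.25% trypsin. Each array held RNA of keratinocytes from the skin of 3 mice, and each group had 1 array. No difference therefore has a replicate check, no test was made, and genotype, mouse pool and array position cannot be told apart.

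Calprotectin is the pair of the calcium-binding proteins S100A8 and S100A9, which withholds zinc and manganese from microbes and acts on cell-surface receptors as an alarm signal. Lipocalin 2 binds the iron carriers that bacteria secrete. Stefins A are small intracellular inhibitors of cysteine cathepsins, and in mice they are encoded by a row of near-identical genes. Calprotectin and lipocalin 2 are scarce in resting epidermis and abundant in wounded or inflamed epidermis, and neutrophils make them in quantity as well.

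The targeted gene Vdr was not lower by any of its probes on the array labelled VDR KO, where the brightest had a signal of 2928.3, against 2626.3 on the control array. The others had 1871.6 and 382.3 on the array labelled VDR KO, against 1623.7 and 286.2 on the control array. The labels do not name the deleted exon and probe positions were not analysed here, so this comparison does not check the label. Xist, transcribed from the inactive X chromosome, had signals of 1943.3 and 917.3 by its probes on the array labelled VDR KO, against 994.1 and 553.8 on the control array. The brightest probe of the Y-linked gene Ddx3y had 258.1 on the array labelled VDR KO, against 924.8 on the control array, and the part of this sex-linked difference in the results was not tested. All 7 keratinocyte markers examined were detected on both arrays, with a median log2 difference of -0.03. Krt15, a keratin of basal and bulge cells, was furthest from 0, with 17222.7 on the array labelled VDR KO and 22041.6 on the control array, followed by Krt5 with 12351.7 on the array labelled VDR KO and 14664.1 on the control array. Krt1 had 9550.4 on the array labelled VDR KO and 8546.4 on the control array. Krt10, the brightest, had 34643.0 on the array labelled VDR KO and 32223.1 on the control array.

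Signals are the deposited normalized intensities on a linear scale, and each log2 difference is the signal labelled VDR KO over the control signal. Detection was judged by the rank of the signal, and the dimmest detected probe had a signal of 176.6 on the array labelled VDR KO and 178.5 on the control array. Probes for olfactory receptors, which are mostly silent outside the olfactory epithelium, served as a view of the background: 23 of 1149 were detected on the array labelled VDR KO and 24 on the control array.

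The calprotectin subunit genes were detected on both arrays. S100a8 had a signal of 1955.4 on the array labelled VDR KO, against 389.1 on the control array. This is a 5.03-fold difference (log2 difference 2.33), the second in size among 9540 detected genes, and the signal ranked above 92.2% of all probes on the array labelled VDR KO and 73.1% on the control array. S100a9, the partner subunit, had 369.3 on the array labelled VDR KO and 194.3 on the control array, a 1.9-fold difference (log2 difference 0.93). The control signal of S100a9 lay just above the limit of detection and exceeded 1141 of the 1149 olfactory receptor probes, and its signal on the array labelled VDR KO exceeded all of them. Both subunits were brighter on the array labelled VDR KO, with the smaller ratio for S100a9.

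Lcn2 was detected on the array labelled VDR KO alone. Its signal was 275.6 there, above all olfactory receptor probes, and 160.5 on the control array, where 1040 of the 1149 olfactory receptor probes were dimmer. Lcn2 was not well above background on the control array, so its ratio is a bound: the signal labelled VDR KO exceeded the control by at least 1.54-fold, with a measured ratio of 1.72.

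**Figure D1:**
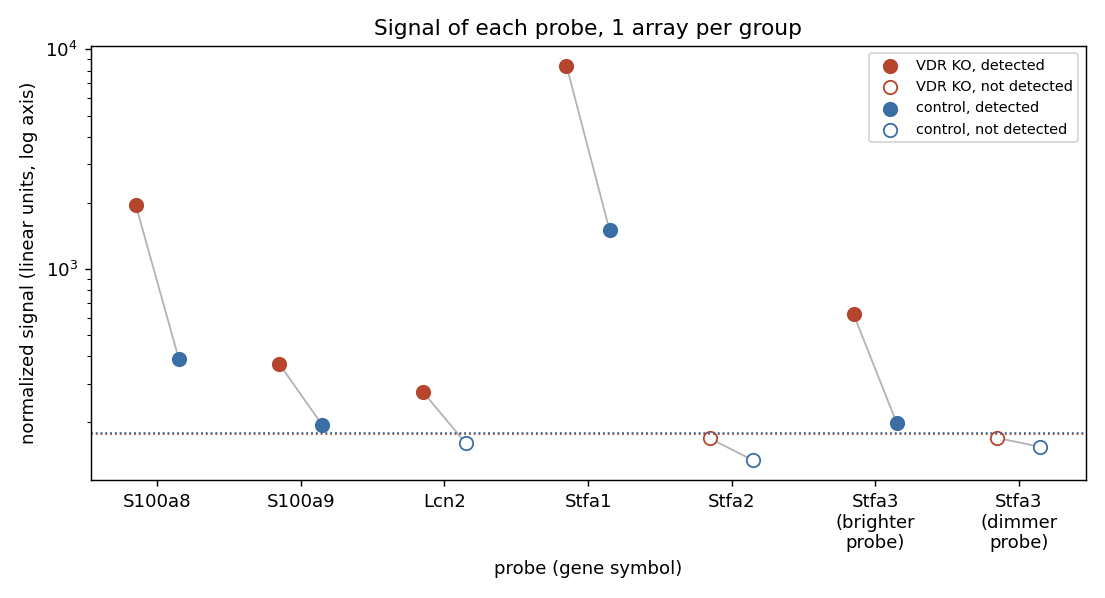
Normalized signal (linear units, log axis) of each of the 7 probes on the array labelled VDR KO (left point of each pair) and on the control array (right point). Filled points are detected and open points are not, and the dotted lines mark the dimmest detected signal of each array (176.6 and 178.5). Stfa1 and S100a8 are far above the lines on both arrays, whereas Stfa2 and the dimmer Stfa3 probe lie below them.

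Among the stefin A genes, Stfa1 carried the largest difference of all detected genes in the deposited normalized signals. Its signal was 8432.5 on the array labelled VDR KO, against 1501.6 on the control array, a 5.62-fold difference (log2 difference 2.49). By signal it ranked 328 of 25697 probes on the array labelled VDR KO and 2574 on the control array. Both signals were far from background, and of the detected members Stfa1 had the ratio that moved least when the background was removed.

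The Stfa3 probes disagreed. The brighter probe had 621.3 on the array labelled VDR KO, against 199.0 on the control array, a 3.12-fold difference (log2 difference 1.64). The dimmer probe had 170.1 on the array labelled VDR KO and 154.9 on the control array (log2 difference 0.14), and it was not detected on either. The dimmer probe was designed on the curated RefSeq transcript of Stfa3, whereas the brighter one was designed on a predicted transcript that the current gene table does not list. RefSeq gives Stfa3 as an older name of Stfa1 as well, so it is uncertain which stefin copy the brighter probe measured. Averaged over both probes, the log2 difference of Stfa3 was 0.89, under 2-fold.

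The only Stfa2 probe was not detected on either array, with 169.1 on the array labelled VDR KO and 134.4 on the control array, and no fold is given for it. Its control signal was among the dimmest, above 127 of the 1149 olfactory receptor probes, and its signal on the array labelled VDR KO was above 1103 of them. At this signal a difference was not detectable. This probe too was designed on a predicted transcript that the current gene table does not list, so its signal may not stand for the Stfa2 gene.

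In total, 3 of the 6 genes (Stfa1, S100a8 and Stfa3 by its brighter probe) exceeded their control signal at least 2-fold on the array labelled VDR KO. Of the 9540 detected genes 0.304% were at least 2-fold higher there and 0.199% at least 2-fold lower. The median log2 difference of the 6 genes was 1.28, against a median of -0.001 over all detected genes. The median of the 6 genes lies between S100a9 (0.93) and Stfa3 by its brighter probe (1.64). The mean over both Stfa3 probes was 0.89. With Lcn2 at its bound and Stfa2 set to 0 the median was again 1.28. This could not differ, because Lcn2 and Stfa2 already had the lowest differences. Since the 6 genes were chosen for their difference, nothing is read from the count or the median.

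**Figure D2:**
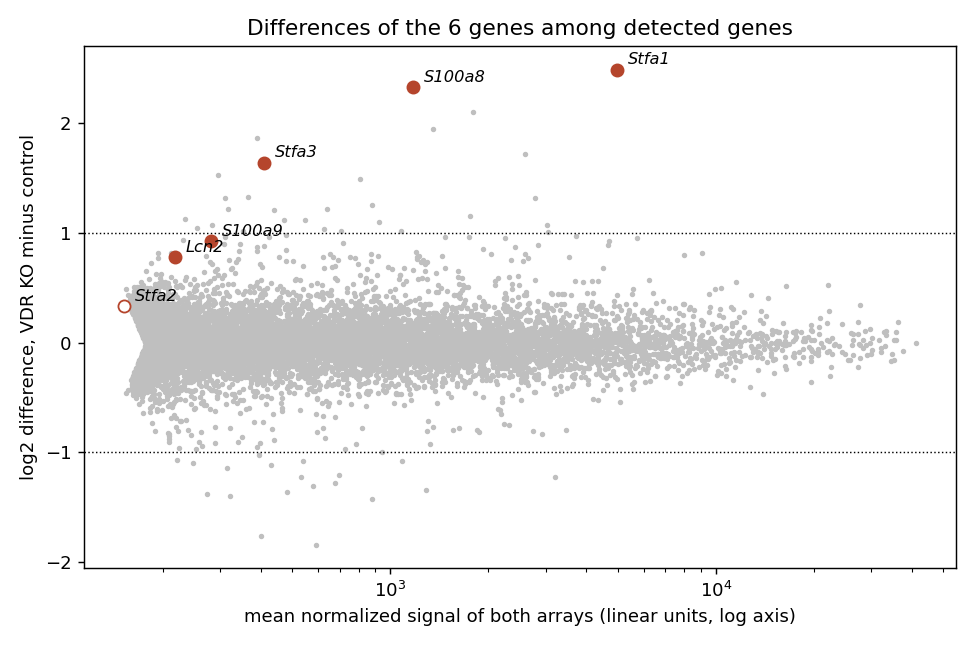
Log2 difference (array labelled VDR KO minus control array) against the mean signal of both arrays (linear units, log axis) for the 9540 detected genes in grey and the 6 genes in red, with Stfa2 open because it was not detected. Dotted lines mark 2-fold. Stfa1 (2.49) and S100a8 (2.33) lie above all other genes, and S100a9 (0.93) and Lcn2 (measured ratio, undetected on the control array) lie under the 2-fold line among dim genes.

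How far the dimmer members differed depended on the background, which the deposited normalized signals still contain. With the background removed by the normexp model and an offset of 16, 5 of the 6 genes were brighter by at least 2-fold on the array labelled VDR KO, against 1.7% of all detected genes. S100a8 then differed 8.88-fold, Stfa3 by its brighter probe 8.36-fold, Stfa1 6.42-fold and S100a9 3.9-fold. Stfa1 was thus no longer the gene with the largest difference. Lcn2 was at least 2.76-fold higher. The ratio of S100a9 was 3.9 in this treatment and 1.9 in the deposited signals, whereas that of Stfa1 was 6.42 and 5.62. With an offset of 50 the ratios were 7.69 for S100a8, 6.27 for Stfa1, 5.29 for Stfa3 by its brighter probe and 2.64 for S100a9, and 0.723% of detected genes were at least 2-fold higher.

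**Figure D3:**
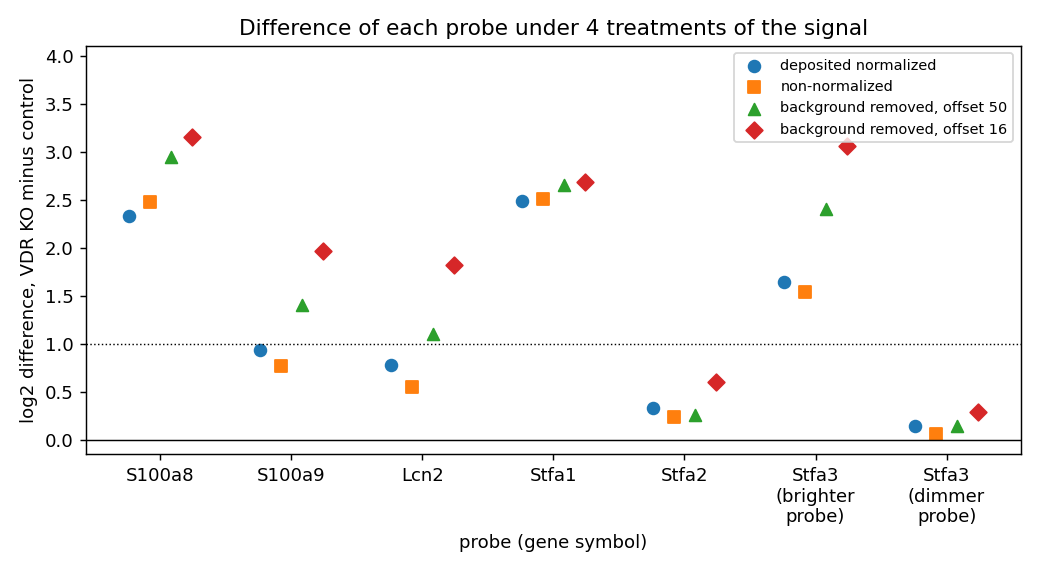
Log2 difference (array labelled VDR KO minus control array) of each of the 7 probes in the deposited normalized signals, the non-normalized signals, and after background removal with an offset of 50 or 16. The dotted line marks 2-fold. The points of Stfa1 lie between 2.49 and 2.68, whereas those of S100a9 spread from 0.77 to 1.96 and cross the line.

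The stefin A genes lie in 1 row on chromosome 16 with other cystatin-type genes, and Stfa1, Stfa2 and Stfa3 share most of their promoter sequence. RefSeq promoter sequences (GRCm38.p6) were found for all 6 genes. Over the 250 bases before the start of the gene, Stfa1 and Stfa3 were 83.1% identical, Stfa1 and Stfa2 80.6%, and Stfa2 and Stfa3 80.2%, whereas every pair of the 6 genes that was not a pair of stefins lay between 45.1% and 49.6%. The last 100 bases before the start are shown to let the copies be compared, with the longest runs that all 3 share in capitals, 2 runs of 13 bases each, at chr16:36277048-36277147 on the plus strand for Stfa1, and on the minus strand at chr16:36408364-36408463 for Stfa2 and chr16:36455393-36455492 for Stfa3.
Stfa1: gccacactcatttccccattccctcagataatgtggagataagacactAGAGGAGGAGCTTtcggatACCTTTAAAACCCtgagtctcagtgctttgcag
Stfa2: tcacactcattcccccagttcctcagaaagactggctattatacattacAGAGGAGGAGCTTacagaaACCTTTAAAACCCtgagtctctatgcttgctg
Stfa3: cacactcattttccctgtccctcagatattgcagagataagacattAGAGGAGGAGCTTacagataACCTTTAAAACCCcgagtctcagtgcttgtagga

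The first shared run begins 52 bases before the start in Stfa1, 51 in Stfa2 and 54 in Stfa3, and the second begins 33, 32 and 34 bases before it in the same order. Stfa1 was detected on both arrays, and the Stfa2 probe, which may not stand for the gene, on neither. The promoters of both carry these runs, and a relation between the runs and the signals was not tested. The string TATAAA, a common form of the TATA box, was searched on either strand, from 250 bases before to 50 after the start. It was present in 13.6% of all 32851 promoters of this length and in 2 of the 6 here. Variant forms were not searched, so genes without this string may still have a TATA box. In S100a8 the string began 30 bases before the start. In S100a9 it began at the first base after the start as RefSeq places it, past the start that a TATA box would precede. The 100 bases before the start of S100a8, the calprotectin gene with the larger difference, are shown with this motif in capitals, at chr3:90668971-90669070 on the plus strand.
S100a8: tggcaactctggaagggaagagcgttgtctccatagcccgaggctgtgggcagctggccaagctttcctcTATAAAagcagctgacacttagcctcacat

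The AP-1 motif TGANTCA was found in Stfa3 alone, 30 bases after the start, against 7.81% of all promoters. The nuclear receptor core motif AGGTCA, searched on both strands because the vitamin D receptor binds repeats of such motifs, was found in Stfa2 alone, 103 bases before the start, against 16.3% of all promoters. Each match lay in a different gene, so none could overlap another.

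The other genes of the stefin A row that were detected differed less than Stfa1 in the deposited signals. Of 12 protein-coding genes in the row, 8 had a probe, and 5 of these are not among the 6 genes. Csta2 had 239.0 on the array labelled VDR KO and 154.7 on the control array, where it was not detected, so that it was at least 1.34-fold higher. With the background removed and an offset of 16, its measured ratio was 2.77. Csta1 had 340.2 on the array labelled VDR KO and 280.6 on the control array, a 1.21-fold difference. Cstdc4, Csta3 and Cstdc6 were not detected on either array. The genes next to the row on one side, Ccdc58, Fam162a and Wdr5b, differed 1.23-fold, 1.2-fold and 1.06-fold. On the other side Casr, the calcium-sensing receptor gene, was not detected on either array, and the brightest probes of the costimulatory gene Cd86 and of Ildr1 differed 1.31-fold and 1.08-fold. Copies of the row are near-identical, so a probe named for one may bind transcripts of another, and this was not resolved here because probe sequences were not used.

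**Figure D4:**
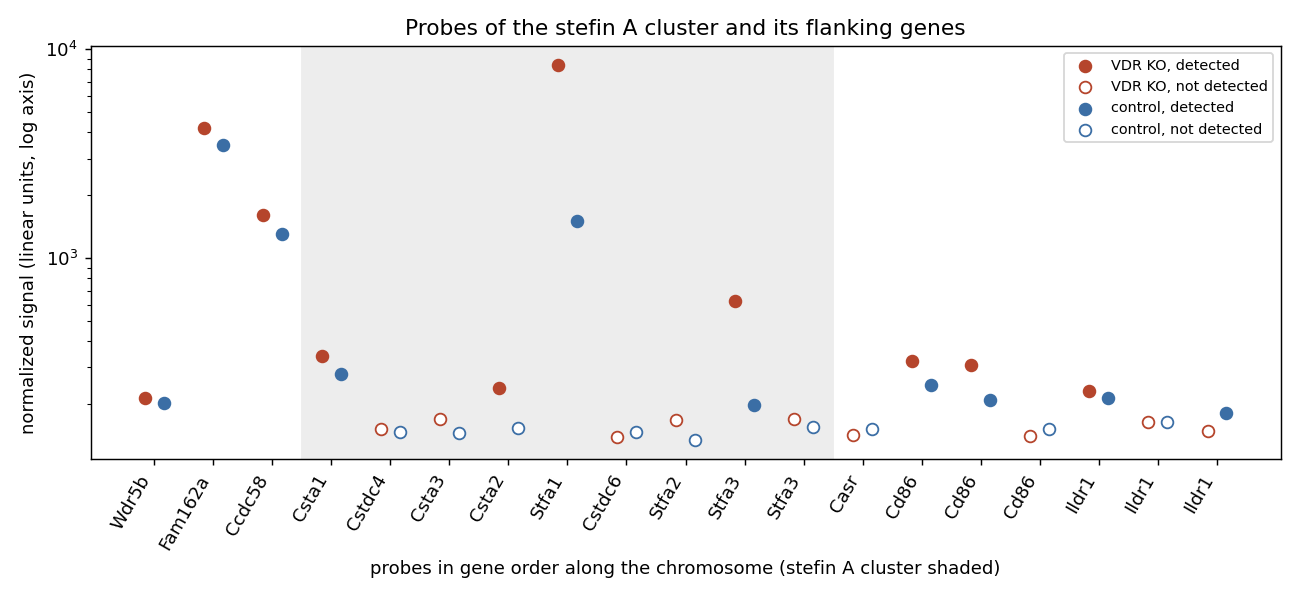
Normalized signal (linear units, log axis) of each probe of the stefin A row (shaded) and of the 3 protein-coding genes on either side, in gene order, on the array labelled VDR KO (left point of each pair) and the control array (right point). Open points are not detected. The pairs of Stfa1 (8432.5 against 1501.6) and of the brighter Stfa3 probe (621.3 against 199.0) stand out, and most other probes of the row lie near background.

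Neutrophils are a known source of S100a8, S100a9, Lcn2 and stefins, so markers of these and other cell types were read on the same arrays. Of 19 neutrophil and myeloid markers with a probe, 17 were not detected on either array, among them Mpo, Elane, Ltf, Camp, Ngp, Cxcr2, Csf3r and Itgam. Ly6g, also on the list, had no probe. Whether the undetected probes respond to their transcripts was not tested, so an undetected probe need not mean an absent transcript. For example, H2-Aa was undetected (169.4 on the array labelled VDR KO, 157.4 on the control array) beside its class II partner H2-Ab1 (2974.8 and 1533.8). Mmp9, a gelatinase gene, was detected on both, with 263.5 on the array labelled VDR KO and 239.6 on the control array. S100a4 had 152.6 on the array labelled VDR KO, where it was not detected, and 199.0 on the control array. The summed signal of the 19 markers, which is mostly background, was 2955.6 on the array labelled VDR KO and 3012.9 on the control array. Of 9 macrophage markers, 4 were detected on the array labelled VDR KO and 2 on the control array. None was 2-fold apart, and the summed signal was 1546.5 on the array labelled VDR KO and 1447.3 on the control array. Adgre1, Cd68 and Csf1r had 193.0, 206.0 and 213.8 on the array labelled VDR KO, against 165.0, 179.6 and 188.1 on the control array.

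None of the Langerhans cell markers was 2-fold apart in the deposited signals, but their summed signal differed beside the 6 genes. The summed signal of 6 markers was 7693.6 on the array labelled VDR KO and 4486.6 on the control array, and the 4 detected ones had a median log2 difference of 0.73, whereas H2-Aa and Itgax were not detected on either array. H2-Ab1, of the class II antigen-presenting complex, had 2974.8 on the array labelled VDR KO and 1533.8 on the control array, and Cd74 had 3343.8 on the array labelled VDR KO and 1959.9 on the control array. Cd207, which encodes langerin, had 839.2 on the array labelled VDR KO and 517.0 on the control array. Of 6 melanocyte markers, with a summed signal of 903.3 on the array labelled VDR KO and 1545.0 on the control array, only Dct, an enzyme gene of melanin synthesis, was 2-fold apart. Dct had 182.4 on the array labelled VDR KO and 619.5 on the control array. Mlana and Pmel were not detected on the array labelled VDR KO (138.7 and 149.3) and had 231.0 and 222.2 on the control array. Fibroblast markers had a summed signal of 1087.3 on the array labelled VDR KO and 1326.9 on the control array over 6 markers, with none 2-fold apart. Dcn, a matrix proteoglycan gene, had 181.1 on the array labelled VDR KO and 348.4 on the control array, Vim had 326.5 on the array labelled VDR KO and 349.3 on the control array, and Col1a1 was not detected on the array labelled VDR KO (140.0) and had 186.3 on the control array. T cell markers had a summed signal of 2607.7 on the array labelled VDR KO and 2779.0 on the control array over 6 markers, with none 2-fold apart. Cd3g had 335.3 on the array labelled VDR KO and 493.3 on the control array, and Cd3d had 253.9 on the array labelled VDR KO and 281.6 on the control array. Cd3e had 305.5 on the array labelled VDR KO and 284.0 on the control array, and Thy1 had 1415.6 on the array labelled VDR KO and 1425.4 on the control array. These counts are of the deposited signals, and with the background removed and an offset of 16, 2 Langerhans cell markers (H2-Ab1 and Cd207) were at least 2-fold higher and 3 melanocyte markers and 1 fibroblast marker (Dcn) at least 2-fold lower on the array labelled VDR KO. In pooled cells, more cells of a type and more RNA per cell cannot be told apart, and the part of these cell types in the results was not tested.

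Receptors and partners of calprotectin and lipocalin 2 had a median log2 difference of 0.03 over 6 of 12 genes that were detected, and none was 2-fold apart. Tlr4 and Cd14 of the receptor complex for S100A8 and the lipocalin 2 receptor gene Lrp2 were not detected on either array. The other lipocalin 2 receptor gene Slc22a17 was detected on both, with 255.4 on the array labelled VDR KO and 288.8 on the control array, as was Ager, the gene of the calprotectin receptor RAGE, with 227.7 on the array labelled VDR KO and 218.3 on the control array. Myd88, the adaptor below Tlr4, had 6677 on the array labelled VDR KO and 6685 on the control array. Emb, which encodes embigin, a surface protein of the basigin family, was the member furthest from 0, with 2535.2 on the array labelled VDR KO and 4395.7 on the control array (log2 difference -0.79). Ly96, which encodes the Tlr4 partner MD-2, had 629.0 on the array labelled VDR KO and 533.5 on the control array. Mcam had 259.4 on the array labelled VDR KO and 221.1 on the control array.

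Cytokines known to induce these genes in epidermis, their receptors and transducers had a median log2 difference of 0.07 over 19 detected of 26 genes on the array, and none was 2-fold apart. Of the 19, 13 were higher on the array labelled VDR KO, as were 49.6% of all detected genes. Il17a, Il17f, Il22 and Il6 were not detected on either array. Tnf and Il1b were detected on both, with 235.4 and 312.3 on the array labelled VDR KO, against 203.5 and 274.1 on the control array. Il1a, an alarm cytokine of keratinocytes, had 323.7 on the array labelled VDR KO and 249.1 on the control array. Nfkbiz, a transcriptional co-activator downstream of IL-17 and IL-1, had 12528.1 on the array labelled VDR KO and 10104.7 on the control array (log2 difference 0.31). Socs3, a feedback inhibitor of cytokine signalling, had 9965.9 on the array labelled VDR KO and 12625.7 on the control array (log2 difference -0.34). The interleukin 1 receptor gene Il1r1 was not detected on the array labelled VDR KO (156.4) and had 198.4 on the control array.

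Stefins inhibit cysteine cathepsins. A list of 12 cathepsin-type protease genes had a median log2 difference of 0.04 over 10 detected genes and none 2-fold apart. It holds Ctsa, a serine carboxypeptidase gene, and the legumain gene Lgmn, which are not cysteine cathepsins, and without these 2 the median was 0.10 over 8 detected of 10 genes. Ctsc, which activates serine proteases of immune cells, had 2810.3 on the array labelled VDR KO and 1936.5 on the control array (log2 difference 0.54), the largest in the list. Ctsb, the brightest, had 7269.2 on the array labelled VDR KO and 6601.4 on the control array. Ctsz had 223.2 on the array labelled VDR KO and 166.9 on the control array, where it was not detected, a difference of at least 1.25-fold. Ctsk was not detected on the array labelled VDR KO (158.0) and had 202.3 on the control array. Among other cystatins, 7 of 14 genes were detected, with a median log2 difference of 0.19 and none 2-fold apart, and Cstb, the stefin B gene, had 29190.7 on the array labelled VDR KO and 25556.0 on the control array. Ahsg, a cystatin-type plasma protein gene, had 180.7 on the array labelled VDR KO, just above its limit of detection, and 155.7 on the control array, where it was not detected.

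**Figure D5:**
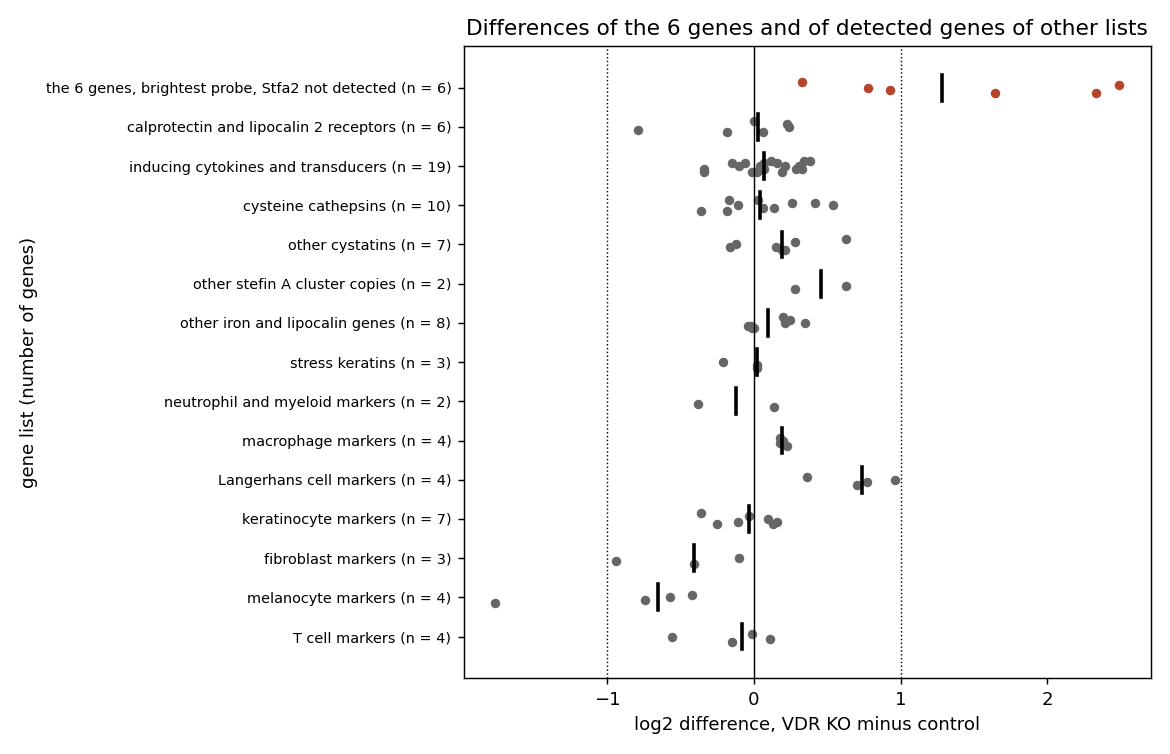
Log2 difference (array labelled VDR KO minus control array) of each of the 6 genes in red and of each detected gene of the other lists in grey, with the median of each list as a black bar and 2-fold as dotted lines. The 6 genes were chosen for this difference and have a median of 1.28. Langerhans cell markers (median 0.73) lie to the right of 0, melanocyte markers (-0.65) to the left, and the cathepsin list (0.04, with Ctsa and Lgmn) near it.

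For each of the 6 genes the other gene with the nearest pair of signals, by distance in the plane of both log2 signals, was looked up over these 2 arrays. Stfa1 had no other gene within 0.5 log2 units, and the nearest was Mmp2 at 1.074 units, with 4922.8 on the array labelled VDR KO and 2510.2 on the control array. S100a8 had none within 0.5 units either, and the nearest was Lce1d, a late cornified envelope gene, at 0.54 units with 2151.3 on the array labelled VDR KO and 558.7 on the control array. Stfa3 by its brighter probe had 5 genes within 0.5 units, and the nearest was the serpin gene Serpinb3a, with 610.7 on the array labelled VDR KO and 167.6 on the control array. S100a9 had 132 genes within that distance, Nppb nearest, and Lcn2 had 506, Soat1 nearest. Stfa2 had 9235 such genes, Zbed5 nearest. The 6 genes were chosen for large differences in these same signals, so nothing is read from a lack of near neighbours.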

How the data were processed

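Per the file headers, the deposited tables hold the average bead intensity and a detection p-value of each probe, and the submitters' processing notes name GenomeStudio 2011.1. The authors' normalized intensities shared 1 distribution between the arrays (sorted values at most 0.3 units apart), by a method the labels and headers do not state, and the further deposited value table was identical to them. The deposited detection p-values were out of step with the probe order (Spearman's rho with the intensity, across probes, -0.0073 on the array labelled VDR KO and -0.0053 on the control array). They were therefore reassigned by signal rank, ties taking the larger p, and a probe was detected at p under 0.05, which gave 12147 probes on the array labelled VDR KO and 11994 on the control array.

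Each gene was represented by its brightest probe, and a gene was counted when detected on at least 1 array and 2-fold apart. For a gene not detected on the control array, the bound divides the other signal by the higher of its control signal and the dimmest detected control signal. As alternatives, the normexp background of limma 3.58.1 (R 4.3.3) was removed from the non-normalized intensities, with an offset of 16 or 50, and the procedure was tested on simulated data. Symbols and promoters came from RefSeq (GRCm38.p6), and 25376 of 25697 probes matched. Promoters were aligned with Biopython 1.88. The labels and headers do not state which type of bead array was used, and the number of arrays limits the precision. From each list the 3 detected genes with the largest absolute difference and the brightest were named by rule. Slc22a17, Ager, Tnf and Il1b were named outside this rule, and undetected genes were named after their values were seen. The members and lists were chosen with earlier results of these data known.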

Additional observations from a re-analysis of the deposited data

How the results depend on the processing

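No paired analysis was possible because each group had 1 array, and leaving out a replicate was not possible for the same reason. Over 4 alternatives for each of the 6 genes and the mean over both probes of Stfa3, 25 values in all, 16 kept their side of 2-fold and stayed within 1.5 times, and 0 changed sign. The alternatives reprocess the same arrays from which the genes were chosen, so this tally is no check on the differences. It includes the values of Stfa2, which was not detected on either array. Background removal with an offset of 16 gave log2 differences of 3.15 for S100a8, 1.96 for S100a9, 1.82 for Lcn2 and 3.06 for Stfa3. With an offset of 50 they were 2.94, 1.4, 1.1 and 2.4 in the same order. The values of Lcn2 are measured ratios over an undetected control signal, and its bound with an offset of 16 was at least 2.76-fold. Leaving Ctsa and Lgmn out of the cathepsin list, and setting Lcn2 to its bound and Stfa2 to 0, were chosen after seeing the data. The mean over both Stfa3 probes gave 0.89. Genes at least 2-fold higher numbered 29 in the deposited normalized signals, 162 with an offset of 16 and 69 with an offset of 50, and genes at least 2-fold lower numbered 19, 139 and 54. A stricter or absent detection filter left 29 and 19. Removing a constant background from dim signals widens their ratios by construction, so that ratios near the limit of detection depend on this step and need the most caution. With 1 array per group, the precision of a ratio could not be measured.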

Other observations

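Among iron handling and stress keratin genes, which often accompany lipocalin 2 and calprotectin in injured skin, the detected ones were close between the arrays. Of 14 iron and lipocalin genes, 8 were detected, none was 2-fold apart, and the median log2 difference was 0.10. Tfrc, the transferrin receptor gene, had 1488.5 on the array labelled VDR KO and 1165.2 on the control array, and Orm1, an acute-phase lipocalin, had 11142.8 on the array labelled VDR KO and 9362.5 on the control array. Fth1, which encodes the ferritin heavy chain, had 23182.3 on the array labelled VDR KO and 23362.8 on the control array, and Lcn8 had 186.5 on the array labelled VDR KO and 161.1 on the control array, where it was not detected. Of 4 stress keratin genes 3 were detected: Krt16 had 5338.8 on the array labelled VDR KO and 5275.5 on the control array, Krt17 had 28555.9 on the array labelled VDR KO and 28157.4 on the control array, and Krt6b had 373.8 on the array labelled VDR KO and 432.5 on the control array. Krt6a was not detected on either array, with 154.6 on the array labelled VDR KO and 152.8 on the control array. The antimicrobial iron-binding protein gene Ltf and the iron hormone gene Hamp were not detected on either array.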
